A study of Mus musculus with 9 samples.

Results

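The genes that make, bind and cut hyaluronan were followed in capillaries of the femoral ossification front (OF) and the cells around them. The set holds 9 of the 39179 genes listed in the count tables, namely the synthases Has1, Has2 and Has3, the depolymerizing genes Cemip, Hyal1 and Hyal2, the receptor Cd44, the link protein gene Hapln1 and the proteoglycan gene Vcan. The members were selected on measured values, because they were proposed when the comparison of the ages in these libraries was already known for Cemip. Their differences between the ages are therefore given as a description without a test.

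Hyaluronan is a long unbranched sugar polymer that synthases in the plasma membrane extrude from UDP-glucuronic acid and UDP-N-acetylglucosamine. Proteoglycans such as versican and aggrecan bind it and are held there by link proteins, cells bind it through receptors such as CD44, and hyaluronidases and CEMIP cut it into shorter chains. In growing bone it is abundant in the matrix of growth plate cartilage, which is cleared and replaced at the OF.

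The data came from Tg(TIE2GFP)287Sato/J reporter mice of C57BL/6 origin, in which the Tie2 promoter drives GFP in endothelial cells and the green signal guided the laser. Juvenile mice aged 4 weeks gave 5 libraries and adult mice aged 12 weeks gave 4, and the labels give no treatment and no other allele for either group. Each library pooled many small pieces of unfixed frozen section, so it mixes endothelial cells with whatever lay beside them. The comparison asked how the tissue around these capillaries differs between a bone in active growth and a mature one.

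Library totals ranged from 4856833 to 8077362 counts. A gene with no count in a library could hold up to 3 counts, which is 0.371 to 0.618 CPM (counts scaled to a common library size) depending on the library and covers counting error only. Juvenile replicates 4 and 5 stood apart by sex-linked genes. They held 11 and 1 counts of Xist and 524 and 439 counts of the Y-linked gene Ddx3y, while the other 7 libraries held 2965 to 6598 counts of Xist and at most 1 count of Ddx3y. No adult library had the Y-linked pattern, so a difference that rests on these 2 libraries cannot be told apart from one of sex, and values without them are given where they bear on a result.

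The tissue label was compared with marker genes. All 10 endothelial markers had counts in every library, with a mean between 5.49 and 6.40 log2 CPM, and Egfl7 was the most abundant at 227 CPM. None of the 10 differed between the ages by edgeR, with 0 at an unadjusted p under 0.05 and 0 called by DESeq2 or limma voom. Osteoblast markers, genes of the bone-forming cells, were more abundant. The 10 of them averaged 11.12 to 11.32 log2 CPM in juvenile and 10.22 to 10.69 in adult libraries, and Col1a2, the most abundant, had a mean of 60910 CPM over the 9 libraries.

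Several other cell types left unequal traces in the libraries. Of the osteoblast markers 5 were called higher in juvenile mice and 1, Bglap, in adult mice. The adult libraries were higher for 8 of 8 erythroid markers (most abundant Hbb-bs), 7 of 9 neutrophil markers (S100a8), 2 of 8 osteoclast markers (Acp5), 1 of 7 tested macrophage markers (Vcam1) and 1 of 3 tested megakaryocyte markers (Pf4), all by edgeR. DESeq2 called 8, 6, 2, 2 and 2 genes of these lists in the same order and limma voom only 6, 1, 2, 1 and 0. Marrow stroma markers (Cxcl12) had 1 call in each direction among 6. Pericyte markers (Pdgfrb) had 0 of 6 called by edgeR, with 3 at an unadjusted p under 0.05, and 1 called by DESeq2 and by limma voom. B cell markers (Ebf1) had 0 of 5 called by edgeR, with 2 at an unadjusted p under 0.05, 2 called by DESeq2 and 0 by limma voom. In bulk samples, fewer cells of a type and less RNA per cell cannot be told apart.

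Of the 9 hyaluronan genes, 7 passed the filter on low counts, and Has1 and Has2 did not. Levels between genes are compared as FPKM, the scaled CPM per kilobase of annotated exon. Over all 9 libraries the order of mean FPKM (± SD) was Cd44 at 31.4 ± 9.53, Cemip at 14.8 ± 8.70, Hyal2 at 13.8 ± 4.30, Hyal1 at 10.0 ± 3.58, Hapln1 at 3.44 ± 5.25, Vcan at 3.29 ± 2.02 and Has3 at 0.936 ± 0.262. Has2 averaged 0.0703 and Has1 0.0243 FPKM. The receptor thus led and the synthases came last.

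Some neighbours in this order were separated and others were not. Cd44 exceeded Cemip in 8 of 9 libraries, Hyal1 exceeded Hapln1 in 8, Vcan exceeded Has3 in 7, and Has3 exceeded Has2 in 9. Cemip and Hyal2 traded places, with Cemip the higher in 4 libraries, and Hapln1 was above Vcan in 3, all adult. Juvenile means were 1.19 FPKM for Hapln1 and 4.67 for Vcan. Adult means were 6.24 for Hapln1, with adult replicate 2 at 16.84, and 1.57 for Vcan. The order also depended on age, since Cemip stood second in juvenile libraries at 21.6 ± 4.39 FPKM (n = 5) and below Cd44, Hyal2 and Hyal1 in adult libraries at 6.34 ± 1.74 FPKM (n = 4). With the longest transcript as length, juvenile Cemip was 37.2 ± 7.56 FPKM against 33.5 ± 7.69 for Cd44 and was the higher in 3 of 5 juvenile libraries, so the order of these neighbours depends on the length used.

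**Figure D1:**
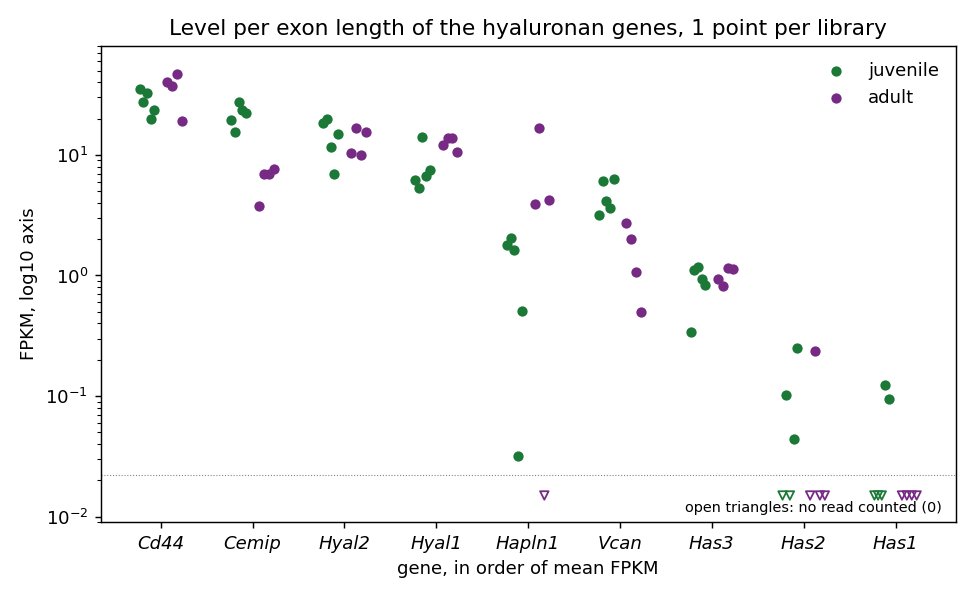
FPKM on a log10 axis for the 9 hyaluronan genes in order of their mean, with 1 point per library in green for juvenile and purple for adult mice and open triangles for libraries without a count. Cd44 lies at the top between 19.2 and 46.6 FPKM, and Has1 and Has2 have no count in most libraries.

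The synthases extend the polymer at the inner face of the membrane. Has1 (ENSMUSG00000003665, chr17:17843323-17855205, minus strand, GRCm38) had 0, 0, 0, 3 and 2 counts in juvenile replicates 1 to 5 and 0 in each of the 4 adult libraries. Has2 (ENSMUSG00000022367, chr15:56665627-56694539, minus strand) had 0, 3, 0, 1 and 5 counts in the juvenile and 0, 6, 0 and 0 in the adult libraries. Both therefore lay near the limit of detection in both ages, and a difference between the ages was not detectable at this depth.

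Has3 (ENSMUSG00000031910, chr8:106870242-106884566, plus strand) was the synthase with the most counts. Its normalised counts were 13.7, 44.3, 46.8, 37.7 and 33.3 in juvenile replicates 1 to 5 and 37.7, 32.5, 45.8 and 45.6 in adult replicates 1 to 4. The ages overlapped, and juvenile replicate 1 was the low one. The mean was 35.1 ± 13.1 in juvenile and 40.4 ± 6.48 in adult libraries (SD), with a log2 fold change of juvenile over adult of -0.20 (SE 0.66). Summed over the 3 synthases the level was 1.0 ± 0.370 FPKM in juvenile and 1.07 ± 0.0950 FPKM in adult libraries. Exons of Has3 share 352 bases with Chtf8 on the opposite strand and those of Has2 share 182 with Has2os, and since the library kit does not mark strand, reads there cannot be told apart by strand.

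Cemip, also listed as 9930013L23Rik, encodes a secreted hyaluronan-binding protein required for depolymerization by cells such as fibroblasts. The gene (ENSMUSG00000052353) spans chr7:83932857-84086502 on the minus strand. Normalised counts were 1503, 1199, 2104, 1800 and 1693 in juvenile replicates 1 to 5 and 290, 537, 532 and 587 in adult replicates 1 to 4. Every juvenile library exceeded every adult library, and adult replicate 1 was the lowest. The mean was 1660 ± 337 in juvenile and 486 ± 134 in adult libraries, a difference of 3.41-fold, or a log2 fold change of 1.77 (SE 0.24). Without juvenile replicates 4 and 5 it was 1.72 (SE 0.29).

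Of the 10 osteoblast markers 5 (Sp7, Col1a1, Col1a2, Ibsp and Dmp1) were called higher in juvenile libraries like Cemip, Bglap was called lower (log2 fold change -2.04, edgeR adjusted p = 0.0151) and 4 did not pass. The summed level of the 10 osteoblast markers was 174400, 181200, 168700, 210200 and 193200 CPM in juvenile replicates 1 to 5. In adult replicates 1 to 4 it was 84250, 89390, 89500 and 61180 CPM. None of the 10 was at 0 in any library. Col1a1, Col1a2 and Ibsp made up most of the sum, with 79310, 69720 and 18220 CPM in juvenile replicate 1. In adult replicate 1 they had 31700, 32280 and 8157 CPM. Cemip minus the mean of these markers, in log2 CPM, was -3.21 ± 0.34 in juvenile and -4.30 ± 0.59 in adult libraries, so the ages overlapped, in juvenile replicate 2 at -3.74 and adult replicate 4 at -3.67. The log2 ratio of Cemip to Col1a1, the collagen gene that took 2.59% to 7.67% of a library's counts, was -9.08 ± 0.38 in juvenile and -9.50 ± 0.61 in adult libraries, and these values overlapped. The part of the osteoblast share in the level of Cemip was not tested.

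The related gene Cemip2, a transmembrane hyaluronidase chosen here after its values were seen, had 449, 241, 476, 467 and 694 normalised counts in juvenile and 788, 627, 443 and 575 in adult libraries. These groups overlapped, with a log2 fold change of -0.39 (SE 0.28, edgeR adjusted p = 0.555). Within each library the log2 ratio of Cemip to Cemip2, taken on FPKM, was 1.22, 1.79, 1.62, 1.43 and 0.76 in juvenile replicates 1 to 5 and -1.97, -0.75, -0.26 and -0.49 in adult replicates 1 to 4. Cemip was thus above Cemip2 per length in every juvenile library and below it in every adult library with exon unions as lengths. With the longest transcripts, an alternative chosen after seeing the data, the juvenile ratios were again above 0, while the adult ratios were -1.54, -0.32, 0.17 and -0.06, so the order turned in adult replicate 3.

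HYAL1 is the lysosomal hyaluronidase that degrades internalized fragments. Hyal1 (ENSMUSG00000010051, chr9:107576927-107581710, plus strand) had normalised counts of 148, 127, 334, 159 and 177 in juvenile replicates 1 to 5 and 286, 325, 327 and 251 in adult replicates 1 to 4. The adult libraries were above the juvenile ones except for juvenile replicate 3, which was above them all. The mean was 189 ± 83.1 in juvenile and 297 ± 36.2 in adult libraries, with a log2 fold change of -0.65 (SE 0.32). These counts are uncertain, since 1920 exon bases, 50.8% of the exons of Hyal1, are shared with Naa80 on the same strand and 159 with Hyal3. Naa80 had 115 to 283 normalised counts in juvenile and 296 to 365 in adult libraries.

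HYAL2 is anchored at the cell surface by a lipid tail and makes the first fragments from long chains. Hyal2 (ENSMUSG00000010047, chr9:107567945-107572779, plus strand) lies 4147 bases upstream of Hyal1. It had 377, 412, 240, 144 and 310 normalised counts in juvenile and 213, 344, 207 and 322 in adult libraries. The ages overlapped broadly, with means of 297 ± 108 and 272 ± 71.3 and a log2 fold change of 0.13 (SE 0.33), which became -0.02 with limma voom. The log2 ratio of Cemip to Hyal2 on FPKM was 0.66 ± 0.85 in juvenile and -1.07 ± 0.40 in adult libraries, and with the longest transcripts 1.29 ± 0.85 and -0.43 ± 0.40. Cemip, Hyal1 and Hyal2 together summed to 43.9 ± 5.93 FPKM in juvenile and 32.0 ± 4.74 FPKM in adult libraries.

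CD44 is the main cell surface receptor for hyaluronan on many mesenchymal and blood cells. Cd44 (ENSMUSG00000005087, chr2:102811141-102901665, minus strand) had 1502, 1174, 1390, 845 and 998 normalised counts in juvenile replicates 1 to 5 and 1722, 1596, 1980 and 816 in adult replicates 1 to 4. Adult replicate 4 was the lowest of all 9 libraries and the other adult libraries were the highest, so the groups overlapped. The means were 1182 ± 271 and 1529 ± 501, with a log2 fold change of -0.37 (SE 0.25). It was -0.17 (SE 0.28) without juvenile replicates 4 and 5, the lowest juvenile libraries, and -0.60 (SE 0.21) without adult replicate 4. Over all libraries its mean FPKM was higher than that of 88.6% of the tested genes.

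Hapln1 and Vcan are neighbours on chromosome 13, 43659 bases apart and on opposite strands. Hapln1 encodes the link protein that locks aggrecan onto hyaluronan in cartilage. It (ENSMUSG00000021613, chr13:89539796-89611652, plus strand) had 66.0, 75.0, 60.1, 1.18 and 18.6 normalised counts in juvenile replicates 1 to 5 and 144, 624, 0 and 157 in adult replicates 1 to 4. Its adult libraries spanned the whole range, from no count in replicate 3 to the highest value in replicate 2. The means were 44.2 ± 32.3 and 231 ± 271, with a log2 fold change of -2.38 (SE 1.16). It was -1.20 (SE 1.25) without adult replicate 2, -1.78 (SE 1.28) without juvenile replicates 4 and 5 and -0.91 (SE 1.79) with limma voom.

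Growth plate chondrocyte markers varied in the same libraries. Of the 13 markers 8 were tested, with Col11a2 called higher in juvenile and Col2a1 and Comp higher in adult mice. The list summed to 2889, 2468, 2996, 3417 and 3691 CPM in juvenile replicates 1 to 5 and 2458, 6573, 2029 and 2169 CPM in adult replicates 1 to 4, and Col11a2, its most abundant gene, averaged 2074 CPM. Without Col11a2 the sum was 517, 476, 974, 363 and 355 CPM in juvenile and 1046, 5002, 598 and 697 CPM in adult libraries, so the order of most libraries rested on that gene, while adult replicate 2 was highest either way. In adult replicate 2 all 13 markers had counts, whereas in adult replicate 3 no count was found for 8, including Col9a1, Col9a3, Matn1 and Sox9. Matn1 had no count in any juvenile library, and Matn3, Cnmd, Ucma and Epyc had none in most of them. Hapln1 was highest in the library with the most chondrocyte marker RNA and at 0 in the one that lacked most markers. The markers with counts in adult replicate 3 were uneven. Col2a1 (581 CPM) and Comp (13.1 CPM) lay above every juvenile library, at 132 to 307 and 0.188 to 8.07 CPM. Col10a1 (2.10 CPM) and Col11a2 (1431 CPM) lay below every juvenile library, and Col9a2 lay within the juvenile range. The part of the cartilage share in the level of Hapln1 was not tested.

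Vcan encodes versican, a large proteoglycan of loose and provisional matrix. Vcan (ENSMUSG00000021614, chr13:89655312-89742509, minus strand) had 287, 552, 378, 331 and 572 normalised counts in juvenile replicates 1 to 5 and 247, 181, 97.8 and 44.8 in adult replicates 1 to 4. All juvenile libraries were above all adult libraries, with only a narrow gap between juvenile replicate 1 and adult replicate 1. The means were 424 ± 130 and 143 ± 89.2, with a log2 fold change of 1.57 (SE 0.44), and 1.51 (SE 0.53) without juvenile replicates 4 and 5.

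**Figure D2:**
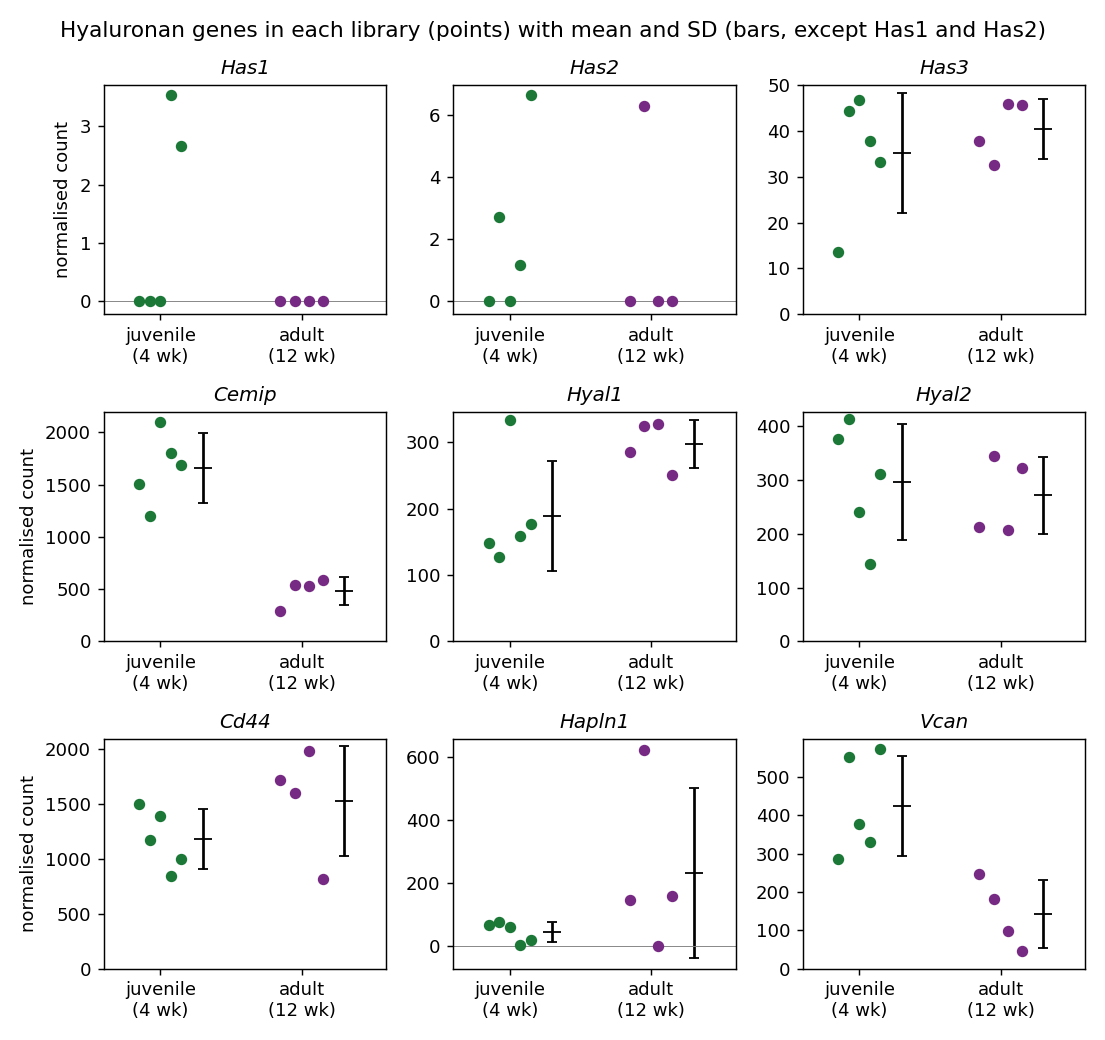
Normalised counts of the 9 hyaluronan genes on linear axes, with 1 point per library for juvenile mice aged 4 weeks (green, n = 5) and adult mice aged 12 weeks (purple, n = 4) and black bars for mean ± SD where most libraries had counts. Cemip and Vcan are the genes whose juvenile and adult points do not overlap.

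Of the 7 tested members 1, Cemip, was called between the ages, where 3.88% of the 13418 tested genes were called in either direction. The groups did not overlap for 2 members, Cemip and Vcan, where they did not overlap for 9.15% of all tested genes. The log2 fold change was above 0 for 3 members and below 0 for 4, with a median of -0.20 against -0.01 over all tested genes. Nothing is read from these counts, because the members were chosen with the comparison in view.

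The genes whose profiles were closest to Cemip across the 9 libraries, by Pearson correlation of log2 CPM, were Nckap5l (0.966), Scx (0.966), Gars (0.965), Cnih1 (0.963) and Mmp23 (0.960). Scx encodes a transcription factor of tendon and ligament cells. Because Cemip separated the ages, genes that differ with age score high on this measure. After the mean of each age was subtracted, the same correlations were 0.679 to 0.720. Vcan was closest to Fkbp9 (0.975), Eprs (0.972) and Sema6a (0.971), which after that subtraction gave 0.924 to 0.934.

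The other members had different nearest genes. Hapln1 was closest to 6530409C15Rik (0.960), Tspan9 (0.959) and Tpm3 (0.943), and Cd44 to Anapc11 (0.961), Smad2 (0.960) and A230056P14Rik (0.955). Hyal2 was closest to Thoc6 (0.974), Gm13427 (0.943) and Gm12592 (0.916), and Hyal1 to Fam129c (0.937), Gm10039 (0.921) and Gm6712 (0.913). Has3 was closest to Axin1 (0.965), Trappc12 (0.956) and Zfand1 (0.952). All are correlations over 9 libraries that share depth and tissue mixture, given without a test.

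RefSeq promoters of GRCm38.p6, covering 250 bases before to 50 after the start, were found for 7 of the 9 members, and Has2 and Has3 had no entry. They were searched on both strands in the bases before the start for the TATA box letters TATAAA. The motif was present in 4063 of 32851 mouse promoters (12.4%) and, among the members, in Cemip alone, once, at position -29 with the last base before the start counted as -1. The 80 bases before the Cemip start are shown because they hold this match. They are chr7:84086506-84086585 read on the minus strand, with the motif in capitals. A match of letters is a description and not a mapped binding site.
Cemip: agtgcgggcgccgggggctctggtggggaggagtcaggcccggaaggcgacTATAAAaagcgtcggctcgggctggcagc

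The wider pathway was read from 41 other genes, grouped by role. Earlier results of these data were known when the list was made. All were listed in the tables and 24 passed the filter. Between the ages 1 of the 24 rose in juvenile mice, where 1.99% of all tested genes did, and 2 were higher in adult mice, where 1.89% did. The median log2 fold change was -0.30, against -0.01 over all tested genes. The ages did not overlap for 5 of the 24, where they did not overlap for 9.15% of all tested genes. Among these 5, Tlr2 passed the filter mainly through the adult libraries and Bcan and Hapln3 through the juvenile libraries. The counts of genes called or not overlapping are therefore given as a description.

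Precursor synthesis supplies the UDP-sugars, and all 8 of its genes were tested. Ugdh, the dehydrogenase that makes UDP-glucuronic acid, had 988, 961, 986, 1501 and 965 normalised counts in juvenile replicates 1 to 5 and 691, 678, 493 and 366 in adult replicates 1 to 4. All juvenile libraries were above all adult libraries, and juvenile replicate 4 was far above the rest. The log2 fold change was 0.96 (SE 0.23, edgeR adjusted p = 0.0391), which made it the 1 gene called in this direction. Uap1l1, related to the enzyme that forms UDP-N-acetylglucosamine, did not pass (log2 fold change -0.66, SE 0.29, edgeR adjusted p = 0.25). The other 6 did not pass either.

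The depolymerases and exoglycosidases had 8 listed genes. Hyal4, Hyal5, Hyal6 and Spam1 had no count in any library and Hyal3 too few to test. Hexa encodes a lysosomal enzyme chain that takes part in removing N-acetylhexosamine from sugar chains and glycolipids. It had 4466, 5548, 4318, 3846 and 4657 normalised counts in juvenile replicates 1 to 5 and 7785, 6907, 9703 and 6838 in adult replicates 1 to 4. Every adult library was above every juvenile library, and the log2 fold change was -0.77 (SE 0.16, edgeR adjusted p = 0.0186). Exons of Hexa share 255 bases (12.8%) with Tmem202 on the opposite strand. Gusb, which encodes the lysosomal beta-glucuronidase, had 522 to 1350 normalised counts in juvenile and 736 to 1587 in adult libraries and did not pass (log2 fold change -0.40, SE 0.29, edgeR adjusted p = 0.557).

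Among the receptors 7 of 8 were tested. Tlr2, a receptor of innate immunity that short hyaluronan chains have been described to engage, had 1.14, 9.04, 12.0, 14.1 and 22.6 normalised counts in juvenile and 189, 75.5, 88.5 and 73.9 in adult libraries. The ages did not overlap, and the log2 fold change was -3.17 (SE 0.76, edgeR adjusted p = 0.0380). Raw counts of Tlr2 were 1 to 17 in juvenile and 72 to 260 in adult libraries. The gene thus passed the filter on low counts mainly through the adult libraries. With at least 10 counts required in every library it was not tested, so its call is given as a description. Stab1, a scavenger receptor that clears hyaluronan, had 721 to 1170 normalised counts in juvenile and 583 to 1170 in adult libraries (log2 fold change 0.16, SE 0.23, edgeR adjusted p = 0.813).

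Markers of myeloid cells were also more abundant in most adult libraries. The summed neutrophil markers were 19.6, 42.2, 18.1, 73.4 and 25.7 CPM in juvenile replicates 1 to 5 and 4321, 102, 3484 and 3483 CPM in adult replicates 1 to 4. The summed macrophage markers were 26.5, 52.3, 36.2, 56.5 and 33.1 CPM in juvenile and 547, 103, 299 and 484 CPM in adult libraries. Of these sums Vcam1 alone made up 3.57 to 47.25 CPM in juvenile and 158, 93.9, 189 and 158 CPM in adult libraries. It was thus most of the sum in adult replicates 2 and 3. Adgre1, C1qc, Mrc1, Cd163 and Timd4 had no count in adult replicate 2. Osteoclast markers summed to 9128 to 14300 CPM in juvenile and 14110 to 20880 CPM in adult libraries, a sum led by Acp5 at a mean of 9881 CPM. The mean of the 8 osteoclast markers overlapped, at 7.69 to 8.28 log2 CPM in juvenile and 7.72 to 8.42 in adult libraries. Their part in the values of Tlr2 and Hexa was not tested.

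These 3 calls were sensitive to single libraries. Without juvenile replicate 3 or juvenile replicate 4 none of the tested pathway genes passed in edgeR, with 6 and 7 at an unadjusted p under 0.05. In these fits 2.21% and 2.07% of all tested genes were called. Without both juvenile replicates 4 and 5 none passed, with 6 at an unadjusted p under 0.05, where 0.53% of all tested genes were called. The log2 fold changes there were -0.71 for Hexa, -3.83 for Tlr2 and 0.81 for Ugdh. The edgeR adjusted p over the 9 single omissions ranged from 0.0165 to 0.0566 for Hexa, from 0.0395 to 0.0902 for Tlr2 and from 0.0352 to 0.102 for Ugdh. Hexa was called in 7 of the 9 omissions, Ugdh in 2 (without adult replicate 1 or 2) and Tlr2 in 2 (without juvenile replicate 1 or adult replicate 2). Without the filter on low counts Ugdh was not called either (edgeR adjusted p = 0.0509).

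The link proteins and proteoglycans had 4 of 6 genes tested and none called by edgeR, with 3 at an unadjusted p under 0.05, 2 called by DESeq2 (Hapln3 and Hapln4) and 1 by limma voom (Bcan). The named genes had adult values mostly at or near 0 and entered the edgeR and limma voom fits through the juvenile libraries. No conclusion is therefore drawn from these calls. Bcan, which encodes brevican, a hyaluronan-binding proteoglycan best known from brain, had 245, 339, 345, 437 and 267 normalised counts in juvenile and 0, 0, 57.5 and 0 in adult libraries. The ages did not overlap, and its log2 fold change was 4.48 (SE 1.21, edgeR adjusted p = 0.0594). Its adult counts all lay in adult replicate 3, and it passed the filter through the juvenile libraries. The log2 fold change was 7.83 with limma voom (adjusted p = 0.0336), and without the filter on low counts it was 4.46 (edgeR adjusted p = 0.0490). It was 7.15 with the replicate block (edgeR adjusted p = 0.0801). Without adult replicate 3, where no adult count remained, it was 11.33 (edgeR adjusted p = 0.000436). The size of these folds rests on adult values at 0, so neither they nor their p-values are read as a result.

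Hapln3 and Hapln4, link protein genes chosen here after their values were seen, had a like distribution. Hapln3 had 39.8, 155, 72.1, 90.7 and 83.8 normalised counts in juvenile and 0, 15.7, 0 and 0.786 in adult libraries. Hapln4 had 2.28, 34.4, 106, 49.5 and 98.4 in juvenile and 0, 0, 0 and 4.72 in adult libraries. For Hapln3 the ages were separate, and for Hapln4 they overlapped in juvenile replicate 1 and adult replicate 4. Both genes passed the filter on low counts through the juvenile libraries, and their fitted fold changes, shown only in the plot of pathway genes, rest on adult values near 0.

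Acan, the aggrecan gene of cartilage, was spread instead over both ages. It had 130, 129, 349, 36.5 and 125 normalised counts in juvenile replicates 1 to 5 and 29.0, 787, 0 and 290 in adult replicates 1 to 4. Like Hapln1 it was highest in adult replicate 2 and had no count in adult replicate 3. Its log2 fold change was -0.84 (SE 1.08, edgeR adjusted p = 0.782) and it changed sign without adult replicate 2, to 0.51.

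**Figure D3:**
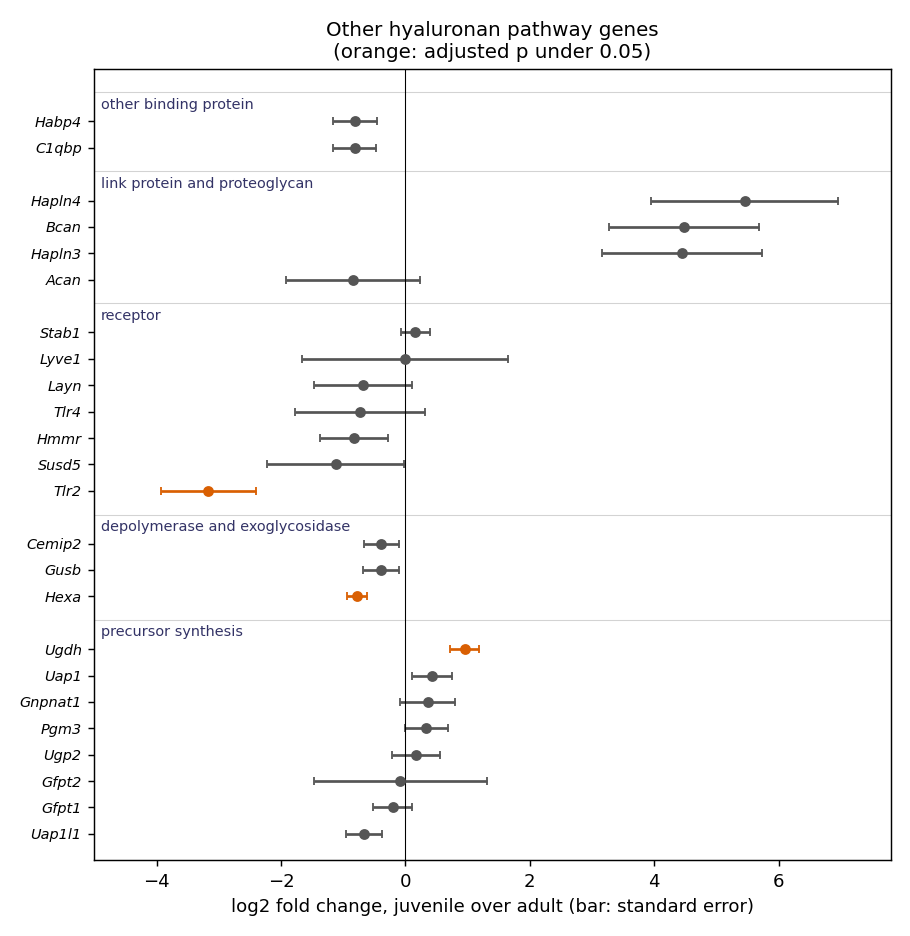
Log2 fold change of juvenile over adult mice with its standard error for the 24 tested pathway genes outside the 9 members, grouped by role, with genes at an adjusted p under 0.05 in orange. Ugdh lies to the right of 0 at 0.96 and Hexa and Tlr2 to the left at -0.77 and -3.17.

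None of the 8 genes that transfer heavy chains to hyaluronan or crosslink it passed the filter. Itih1, Itih3 and Ambp had no count in any library. Of the 3 other binding proteins 2 were tested and neither was called by edgeR, DESeq2 or limma voom, although both had an unadjusted p under 0.05 in edgeR. C1qbp, which encodes a mainly mitochondrial protein that also binds hyaluronan, had 218 to 373 normalised counts in juvenile and 294 to 906 in adult libraries (log2 fold change -0.82, SE 0.34, edgeR adjusted p = 0.226). Habp4 had 85.5 to 189 in juvenile and 165 to 357 in adult libraries (log2 fold change -0.81, SE 0.36, edgeR adjusted p = 0.254).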

How the data were processed

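RNA from pieces cut by laser microdissection was amplified with a poly-A dependent low-input kit that does not mark strand and sequenced in pairs. The submitters' processing notes name TopHat2, Bowtie2 and featureCounts with GRCm38 (mm10). The authors deposited 1 table of raw gene counts per library, neither normalised nor filtered. The annotation release and the handling of reads that fall on overlapping genes are not given in the sources used here. Symbols, positions and exon lengths came from GENCODE for GRCm38, which covered 37693 of 39179 genes (96.2%). The labels do not say how mice and libraries correspond, and p-values measure the spread between libraries. No pair among 36 was a copy.

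Counts were analysed in R 4.3.3 with edgeR 4.0.16 (filterByExpr, TMM scaling, quasi-likelihood F test, Benjamini-Hochberg adjustment over 13418 genes, called at an adjusted p under 0.05), and 520 genes were called, 267 with more RNA in juvenile and 253 with more in adult libraries. The procedure was tested on simulated data. Normalised counts are counts divided by the TMM-scaled library size, times the geometric mean of these sizes. FPKM used the union of exons. The log2 CPM had a prior count of 2. SE is the log2 fold change over the square root of F. Alternatives were DESeq2 1.42.0, limma 3.58.1 voom with quality weights, other scalings, filters, lengths and prior counts, a replicate block, and omission of libraries. Python 3.11.15 and matplotlib 3.10.9 drew the plots.

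Named were all members and, of the pathway list, each gene called and the 2 tested genes per role with the highest mean FPKM. For likeness, the 5 nearest genes were taken for Cemip and the 3 nearest for each other tested member, and of each marker list the most abundant gene. Other genes named are examples chosen after their values were seen. A further gene was left out of the pathway list and is not reported here. The members and lists were chosen with earlier results of these data known.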

Additional observations from a re-analysis of the deposited data

Results flagged for a closer look

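Single libraries far from the others were looked for, by Dixon's ratio of gap to range, in each age for the 9 members and the pathway and overlapping genes whose values are given, for the mean level of each marker list, and for the marker sums and Cemip ratios given in the text. Of 95 such groups of 4 or 5 libraries 15 had one. A chance rate of about 1 in 20 groups, or 4.8, holds only for groups not picked for their values. Several genes here, among them Ptx3, Tnfaip6, Itih5, Hapln3 and Hapln4, were named after their values were seen, so no excess is read from this count. Many of the groups are not independent, and several are near 0 counts, where a single library with counts stands apart.

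Among genes with more counts, Hyal1 had 334 normalised counts in juvenile replicate 3 against 127 to 177 in the other juvenile libraries. Ugdh had 1501 in juvenile replicate 4 against 961 to 988 in the other juvenile libraries. Tlr2 had 189 in adult replicate 1 against 73.9 to 88.5 in the other adult libraries. The chondrocyte markers summed to 6573 CPM in adult replicate 2, and without Col11a2 to 5002 CPM there and to 974 CPM in juvenile replicate 3, where the other juvenile libraries had 355 to 517.

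Other genes had few or no counts in the rest of the group. In adult replicate 2, Has2 and Has2os each had 6.29 normalised counts, Hapln3 had 15.7 and Tnfaip6 9.43. Bcan had 57.5 in adult replicate 3, Hapln4 had 4.72 in adult replicate 4 and Ptx3 had 185 in adult replicate 1. Tnfaip6 had 19.95 in juvenile replicate 5 and Itih5 had 31.8 in juvenile replicate 4.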

How the results depend on the processing

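The log2 fold change of Cemip, whose age difference prompted the choice of members, was 1.72 to 1.78 over changes of method or without juvenile replicates 4 and 5, and 1.57 to 1.87 over single omissions. Against 520 genes called, DESeq2 called 1490, the replicate block 89, the 7 libraries other than juvenile replicates 4 and 5 called 73, and single omissions 262 to 651. The share of calls that were higher in juvenile mice was 51.3%, 48.8% to 51.5% with other scalings, and between 43.4% (no filter on low counts) and 59.6% (replicate block) over all alternatives, so which direction had more calls depended on the setting. As a description, members called were 2 (Cemip and Vcan) with DESeq2, where 6.93% of all genes in the fit were called, with limma voom (3.43%) and with at least 10 counts in every library (6.57%), and 1 to 2 over single omissions, the second being Vcan without adult replicate 1. Pathway genes called were 0 to 4 over single omissions, where 1.97% to 4.63% of all genes in the fit were called. With the replicate block 0 were called in edgeR (7 at an unadjusted p under 0.05), where 0.66% of all genes were. In the 7 libraries 0 were called in edgeR (6 at an unadjusted p under 0.05), where 0.53% of all genes were. With all libraries edgeR called 3 of 24 (3.88% of all genes), DESeq2 5 of 34 (6.93%) and limma voom 4 of 24 (3.43%). Counts of 0 lie near the shares over all genes and are not read as a result about the pathway.

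The labels do not say whether the replicate numbers pair the libraries. Deviations of same-numbered libraries correlated at -0.03 to 0.03, and 3 of 4 juvenile libraries correlated best with the adult library of their own number, a hint from the data and not the design.

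Some log2 fold changes changed sign, and that of Has3 reached 0.00. Hyal2 was -0.02 with limma voom and -0.02 to 0.30 over single omissions, Acan was 1.55 with limma voom, 0.22 with the replicate block and -1.39 to 0.51 over single omissions, and Has3 was -0.33 to 0.00 over single omissions. The cause was not tested. With the longest transcript (7111 bases) in place of the union of exons (12232 bases), the mean level of Cemip became 25.5 FPKM in place of 14.8, below Cd44 at 37.9 over all libraries but above it in juvenile libraries (37.2 against 33.5). The depth limits Has1, Has2 and the other genes with few counts.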

Other observations

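Genes with few counts held some of the most uneven values. Ptx3, which encodes a pentraxin that crosslinks hyaluronan through heavy chains, had 185 normalised counts in adult replicate 1, at most 9.95 in the juvenile libraries and 0 in the other adult libraries. Tnfaip6, the enzyme that transfers the heavy chains, reached 19.95 in juvenile replicate 5 and 9.43 in adult replicate 2 and was at most 2.36 in the other libraries. Itih5, a heavy chain gene, was 60.2 in adult replicate 1, 31.8 in juvenile replicate 4 and 22.01 in adult replicate 2. None of these genes passed the filter, and all were chosen after their values were seen.

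The antisense gene Has2os had counts in the same 4 libraries as Has2, with 4.52, 2.36 and 3.99 normalised counts in juvenile replicates 2, 4 and 5 and 6.29 in adult replicate 2. Reads of the pair cannot be told apart where their exons overlap.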
